A study of Mus musculus with 454 samples.

Results

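The genes described here are the nuclear genes of oxidative phosphorylation, taken by symbol: every symbol that starts with Nduf, Uqcr or Atp5, or that has Cox4 to Cox8 followed by letters or digits. The rule used no measured value and found 89 genes among the 36874 symbols in the read table of picked cells, and 88 among the 28001 genes of the droplet table. The 89 genes were 7 core and 29 accessory subunits of complex I, 7 complex I assembly factors, 8 genes of complex III, 18 of complex IV, 15 of ATP synthase, the supercomplex factor Cox7a2l, the Ndufa4 paralog Ndufa4l2, Atp5s and Atp5sl, which carry the prefix but are not subunits, and 1 pseudogene, Atp5c1-ps. Cytochrome c, cytochrome c1, complex II and the 13 mitochondrially encoded subunits lie outside the rule and are given only as context.

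Oxidative phosphorylation takes place in the inner mitochondrial membrane. Complex I oxidises NADH and passes its electrons through ubiquinone to complex III, cytochrome c and complex IV, where oxygen is reduced, and the protons moved on the way drive ATP synthase, also called complex V. Most subunits are encoded in the nucleus, and a few have isoforms that are used in particular tissues. Neurons rely on this pathway to restore the ion gradients spent in firing.

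Single cells were profiled by RNA sequencing from the nodose ganglion, where the vagal sensory neurons have their cell bodies, in wild-type C57BL/6 mice. Smart-seq2 libraries of cells picked one by one came from mice aged 8 to 12 weeks, and a 10x Genomics droplet library of whole ganglia came from mice aged 6 weeks. The authors' header lines give each picked cell a number and a target code. The number is read here as the mouse, with the prefix Retro taken off, and the codes are used as written. The sources do not expand the prefix or the codes. The cells compared were 120 Port cells from 8 mice, 60 GastG cells from 5, 45 GastP cells from 3, 45 IntP cells from 4, 45 IntM cells from 3, 35 IntD cells from 3 and 44 IntL cells from 3. Codes are pooled by their first letters into the families Gast and Int, and all groups share strain, genotype and age range. The mouse is the replicate. How many mice went into the droplet library is not stated in the labels.

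A picked cell held a median of 1614497 reads, from 3933 to 4692461, and the droplet library held 68051490 unique molecular identifiers (UMIs) over 1108 filtered barcodes. The 5 neuron markers summed to 11828 to 15624 CPM (each gene's counts scaled to the same library total) over the 29 mice. Transcripts of satellite glia summed to 540 to 2268 CPM in Port mice, 198.4 to 2872 CPM in Gast mice and 256.8 to 2872 CPM in Int mice. Transcripts known from injured axons (Atf3, Sprr1a, Gal and Sox11) spread widely over mice: their sum was 128.3 to 7612 CPM in Port mice, 80.6 to 1998 CPM in Gast mice and 54.3 to 407.3 CPM in Int mice. Neuron subtypes also ran with the target family. P2rx2 and Htr3a, receptor genes used as nodose-like markers, had medians of 477.3 and 809 CPM in Gast mice, against 704 and 6523 CPM in Int mice, and 3 jugular-like markers (Prdm12, Prrxl1 and Runx1) summed to 13.5 to 38.1 CPM in Gast mice, against 1.48 to 25.6 CPM in Int mice.

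Promoters of 5 genes named in the results below are given from RefSeq (GRCm38.p6), from 250 bases before to 50 bases after the start of the gene. Capitals mark the motif cores of NRF1, which is GCGC, any 1 base and TGCGC, or of the ETS family to which GABP belongs, CCGGAAG, on either strand, so that CTTCCGG is the ETS core read on the other strand. Both factors are known as regulators of genes for the respiratory chain. The Atp5o and Ndufa11 windows hold the NRF1 core, the Ndufb6 and Uqcrh windows hold the ETS core, and the Cox7a1 window holds neither. Of the other members called in picked cells, Ndufb5, Ndufv2, Ndufa1 and Cox7a2l have windows with neither core, which are not printed, and Ndufb9 has no entry.
Atp5o, chr16:91931581-91931880, minus strand: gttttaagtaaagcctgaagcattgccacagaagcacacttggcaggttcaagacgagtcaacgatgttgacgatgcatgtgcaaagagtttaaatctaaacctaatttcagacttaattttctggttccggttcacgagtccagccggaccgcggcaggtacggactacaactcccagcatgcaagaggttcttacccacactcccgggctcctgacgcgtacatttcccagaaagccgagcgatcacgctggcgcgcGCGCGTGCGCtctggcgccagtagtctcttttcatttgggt
Ndufa11, chr17:56717512-56717811, plus strand: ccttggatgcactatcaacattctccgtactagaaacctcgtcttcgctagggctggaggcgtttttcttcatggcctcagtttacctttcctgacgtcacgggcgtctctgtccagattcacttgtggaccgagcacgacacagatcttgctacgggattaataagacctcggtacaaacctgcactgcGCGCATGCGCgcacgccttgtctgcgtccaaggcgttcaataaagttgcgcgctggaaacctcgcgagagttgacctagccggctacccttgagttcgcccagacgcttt
Ndufb6, chr4:40279372-40279671, minus strand: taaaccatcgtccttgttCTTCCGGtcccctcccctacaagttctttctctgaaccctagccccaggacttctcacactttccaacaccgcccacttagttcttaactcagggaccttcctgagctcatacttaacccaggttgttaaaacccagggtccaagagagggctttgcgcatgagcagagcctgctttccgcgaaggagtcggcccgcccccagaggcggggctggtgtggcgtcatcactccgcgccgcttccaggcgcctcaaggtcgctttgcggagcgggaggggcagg
Uqcrh, chr4:116075021-116075320, minus strand: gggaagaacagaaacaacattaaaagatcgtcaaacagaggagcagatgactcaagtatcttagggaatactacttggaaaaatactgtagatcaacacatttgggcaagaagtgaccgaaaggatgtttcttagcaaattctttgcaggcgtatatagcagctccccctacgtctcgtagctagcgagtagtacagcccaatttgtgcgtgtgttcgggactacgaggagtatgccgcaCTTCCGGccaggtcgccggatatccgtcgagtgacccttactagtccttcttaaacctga
Cox7a1, chr7:30183921-30184220, plus strand: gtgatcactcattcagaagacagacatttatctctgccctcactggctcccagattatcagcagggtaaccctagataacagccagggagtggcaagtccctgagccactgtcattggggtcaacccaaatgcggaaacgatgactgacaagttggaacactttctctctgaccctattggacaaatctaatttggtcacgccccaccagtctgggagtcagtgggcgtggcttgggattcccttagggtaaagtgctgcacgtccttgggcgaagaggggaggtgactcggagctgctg

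Of the 89 genes, 70 had an entry in the promoter table. The NRF1 core was in 16 of these 70 windows (22.9%), against 4.78% of all 27025 promoters. The ETS core was in 14 (20%), against 9.12%. The core AAGATGGC of YY1, another factor linked to mitochondrial genes, was in 8 (11.4%), against 2.88%. Both strands were searched, the ETS and YY1 cores can overlap because both hold AAG, and a match was not tested as a binding site. The member windows were also richer in G and C, with a median of 57.2%, against 52.7% over all promoters.

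Together the members took 1.44% to 2.53% of the reads of a picked neuron, averaged over the cells of each mouse. The share was 1.81 ± 0.212% in Port mice (SD, n = 8; lowest 1.44%, median 1.84%, highest 2.08%). It was 1.93 ± 0.217% in Gast mice (SD, n = 8; lowest 1.63%, median 1.85%, highest 2.26%), against 2.18 ± 0.162% in Int mice (SD, n = 13; lowest 1.90%, median 2.16%, highest 2.53%). All 8 Port mice and 6 of 8 Gast mice lay below the Int median, and the ranges of the families overlapped. By code the medians were 1.85% in GastG, 1.93% in GastP, 2.30% in IntP, 2.08% in IntM, 2.20% in IntD and 2.13% in IntL. The 3 Port mice with the most injury transcripts (mice 22, 27 and 21, at 7612, 3440 and 2686 CPM) had shares of 1.44%, 1.70% and 1.65%, which were the lowest of the Port mice. The Gast mouse with the most (mouse 44, at 1998 CPM) had 1.63%, the lowest of the Gast mice. The part of these transcripts in the share was not tested.

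**Figure D1:**
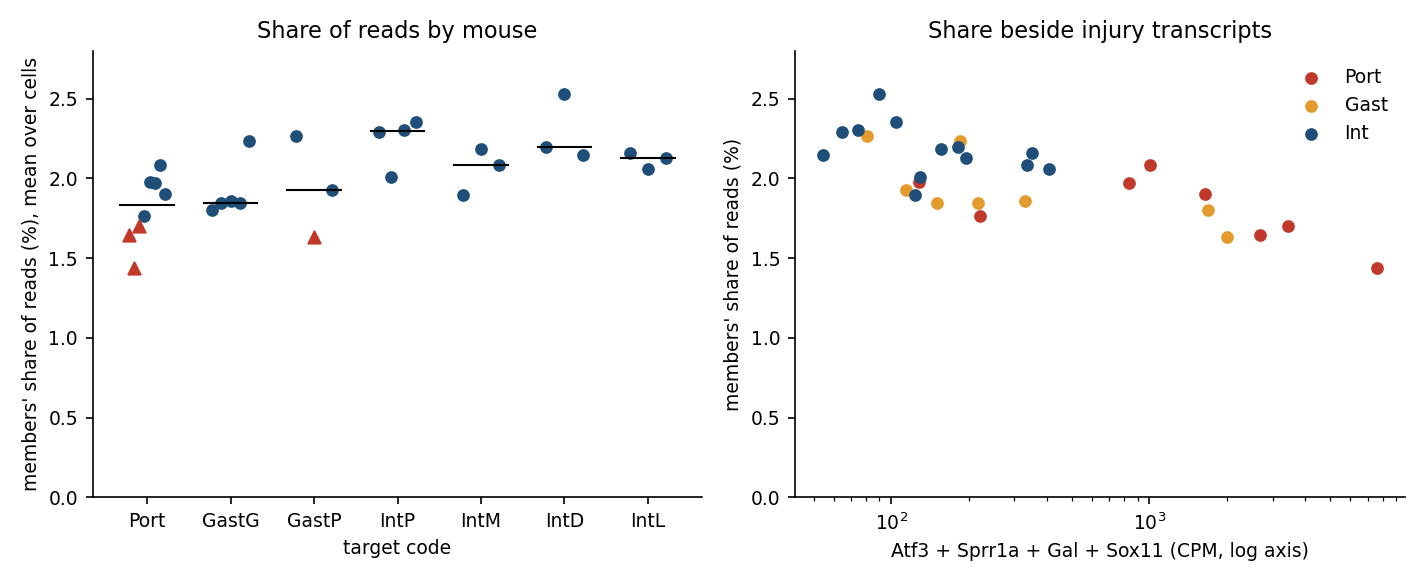
Left, members' share of reads (%, mean over the cells of a mouse) by target code, 1 point per mouse, with the median of each code as a line; red triangles are the 4 mice with the highest sums of injury transcripts. Right, the same shares against the summed CPM of Atf3, Sprr1a, Gal and Sox11 on a log axis, coloured by family. Int mice sit between 1.90% and 2.53%, and the 4 marked mice sit between 1.44% and 1.70%.

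Gast neurons had lower levels of 5 members than Int neurons, and no member was higher. The 5 were Ndufb6, Ndufb5 and Ndufb9, accessory subunits of the membrane arm of complex I, Ndufv2, a core iron-sulfur subunit of its NADH-oxidising arm, and Atp5o, which ties the catalytic head of ATP synthase to its peripheral stalk. The 5 are among 81 members that passed the filter on low counts, and 5.72% of all 12693 genes tested were lower in Gast mice and 9.04% higher, 14.8% in all. The share of members called lower was thus near that of all genes. Calls are by limma on mouse means of log2(CPM + 1), with Benjamini-Hochberg adjustment over all genes at 0.05.

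Ndufb6 (GRCm38 chr4:40270591-40279421) had 179.1, 207.7 and 264.03 CPM in the lowest, median and highest Gast mouse, against 248.8, 300.2 and 333.4 CPM in Int mice. The 2 ranges overlapped only between 248.8 and 264.03 CPM, and 2 of 8 Gast mice lay there. The difference was -0.43 ± 0.083 on the log2 scale (SE), with an adjusted p of 0.000519 by limma. Ndufb5 (chr3:32736990-32751566) had 64.6, 76.6 and 121.2 CPM in Gast mice, against 93.4, 110.1 and 139.8 CPM in Int mice, a difference of -0.43 ± 0.103 (adjusted p = 0.00484, limma). GastG mouse 8 and GastP mouse 10 held the highest Gast values of both genes, and the other 6 Gast mice lay below every Int mouse.

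Atp5o (chr16:91925214-91931687) had 265.6, 330.6 and 406.6 CPM in Gast mice, against 349.8, 408.2 and 464.5 CPM in Int mice, a difference of -0.29 ± 0.087 (adjusted p = 0.0227, limma). A longer gene model of the same symbol overlaps it at chr16:91684398-91926982, so its reads may be divided. Ndufv2 (chr17:66078638-66101559) had 251.6, 295.1 and 355.5 CPM in Gast mice, against 312.9, 356.4 and 399.8 CPM in Int mice, a difference of -0.25 ± 0.083 (adjusted p = 0.0400, limma). Ndufb9 (chr15:58933756-58939488) had 174.9, 195.2 and 257.6 CPM in Gast mice, against 223.2, 253.1 and 298.8 CPM in Int mice, a difference of -0.26 ± 0.089 (adjusted p = 0.0428, limma). The families overlapped for all 81 members tested.

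Most differences were small and below 0 across the complexes. Of the 81 members, 75 had a difference below 0, with a median of -0.16, while 37.9% of all genes lay below 0 with a median of 0.07. Without GastP mouse 44, 62 of 81 members lay below 0 with a median of -0.075. By role, 28 of 29 accessory and 7 of 7 core subunits of complex I, 8 of 8 genes of complex III, 12 of 12 of complex IV and 13 of 15 of complex V lay below 0. The complex I assembly factors, which are not part of the finished enzyme, were less uniform, with 5 of 7 below 0. Without adjustment 26 members had p under 0.05, beside 27% of all genes. Cox7a1, the heart and muscle isoform of complex IV subunit 7a, had the lowest difference, -0.81, and did not pass the test (adjusted p = 0.0701, limma): it had 3.30, 6.84 and 14.3 CPM in Gast mice, against 6.65, 11.9 and 15.04 CPM in Int mice.

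Other genes of the pathway gave these counts. Both electron carrier genes were lower in Gast mice: Cycs, cytochrome c, by a difference of -0.45 ± 0.088 (adjusted p = 0.000639, limma) and Cyc1, the cytochrome c1 subunit of complex III, by -0.27 ± 0.081 (adjusted p = 0.0229, limma). None of 4 complex II genes passed, 1 of 15 tricarboxylic acid cycle genes was lower, and of 18 glycolysis genes 2 were higher and 3 lower. No biogenesis regulator of 7 and no cytosolic ribosomal protein gene of 79 passed.

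Mouse number runs with the target family, since every Int mouse has a number up to 39 while 4 of 8 Gast mice are numbered 41 to 44. Gast mice 41 to 44 had shares of 1.80%, 1.85%, 1.86% and 1.63%, and Gast mice 7 to 10 had 1.84%, 2.24%, 1.93% and 2.26%. Among mice numbered up to 39 the Gast minus Int difference was below 0 for 38 of 81 members with a median of 0.01, and Ndufb6 alone passed (difference -0.32, adjusted p = 0.0223, limma), beside 5% of all genes lower. The labels and headers do not say what the numbers stand for, and for mice numbered above 39 family and number cannot be told apart. With picked cells set against others matched to the same droplet neuron cluster, 77 of 81 differences were below 0 with a median of -0.15 and no member passed, beside 1.74% of all genes.

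Port neurons had lower levels of Ndufa11 and Ndufb5, both accessory subunits of complex I, than the mean of the Gast and Int means, and 0 members were higher. These are 2 of 81, beside 2.95% of all genes lower and 2.04% higher, 4.99% in all, so the share of members called lower was near that of all genes. Ndufa11 (chr17:56717767-56722141) had 108.9, 181.7 and 218.9 CPM in the lowest, median and highest Port mouse, against 148.5, 224.7 and 292.05 CPM in Gast and Int mice, a difference of -0.37 ± 0.107 (adjusted p = 0.0418, limma). Ndufb5 had 53.7, 77.2 and 92.3 CPM in Port mice, against 64.6, 100.4 and 139.8 CPM in Gast and Int mice, a difference of -0.33 ± 0.095 (adjusted p = 0.0425, limma). The ranges of both genes overlapped.

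All 81 members tested had a Port difference below 0, with a median of -0.21, while 57.3% of all genes lay below 0 with a median of -0.04. The medians by role were -0.25 in complex IV, -0.24 in complex III, -0.22 in the accessory and -0.16 in the core subunits of complex I, -0.19 in complex V and -0.06 in the complex I assembly factors. No complex II, electron carrier, tricarboxylic acid cycle or ribosomal protein gene passed, and 1 glycolysis gene was higher and 1 lower. Without adjustment 51 members had p under 0.05, beside 23.5% of all genes.

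The Port mice fell into mice 21, 22 and 27, with 2686, 7612 and 3440 CPM of injury transcripts, and mice 46 to 53, with 128.3 to 1643 CPM. Set against Gast and Int mice numbered up to 39, mice 21, 22 and 27 gave 63 members lower, beside 16.2% of all genes lower, and a median difference of -0.49. Without these 3 mice and GastP mouse 44, 73 of 81 differences were below 0 with a median of -0.13, and 0 members passed, beside 1.08% of all genes. In Port mouse 22 Ndufa11 and Ndufb5 were at their lowest, and Cox7a1 stood at 1.13 CPM, against 16.3 CPM in Port mouse 47. Leaving out GastP mouse 44 alone raised the count of members called lower to 31, beside 6.52% of all genes lower. The part of injury transcripts in these differences was not tested.

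**Figure D2:**
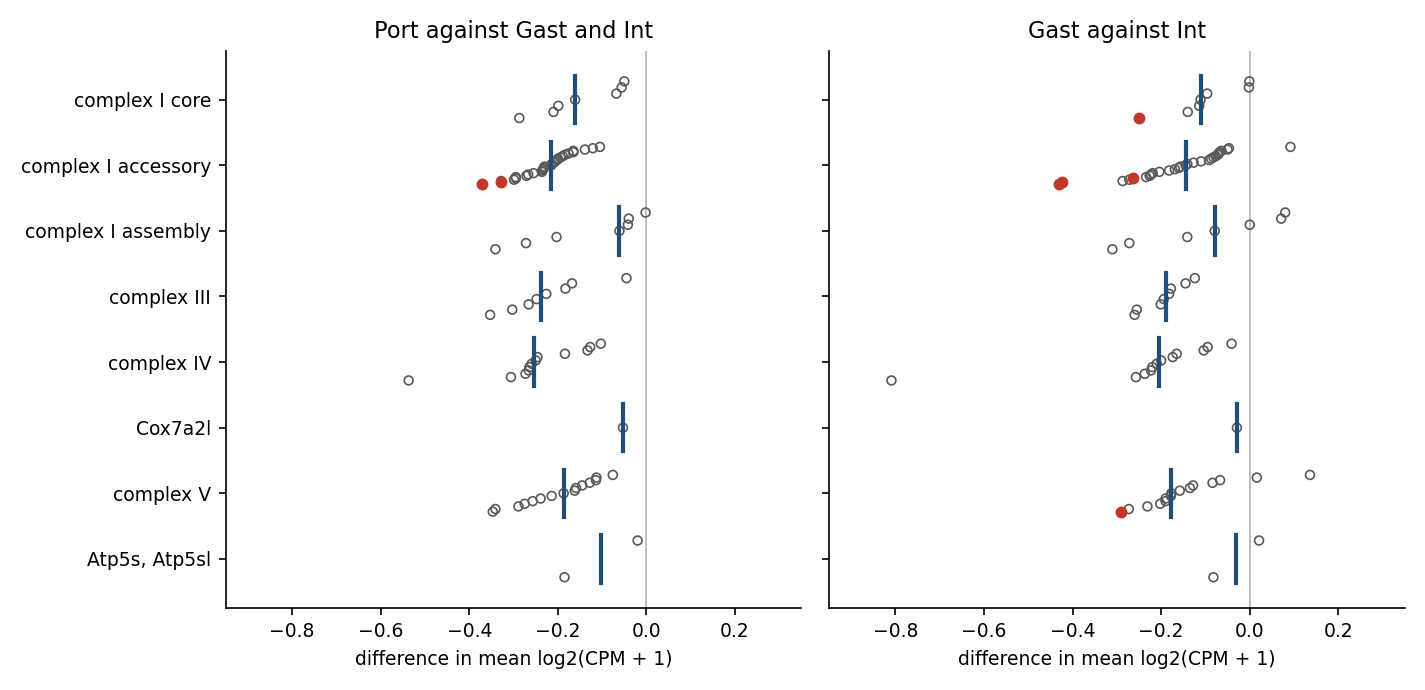
Difference in mean log2(CPM + 1) of each tested member, grouped by role, for Port against Gast and Int (left) and Gast against Int (right). Filled red points passed limma's adjusted p of 0.05, open points did not, and blue bars are medians of each role. All 81 points lie below 0 on the left and 75 of 81 on the right.

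Within the families no member passed the test. For GastG against GastP no member and none of the 12693 genes passed (0%), and no member had an unadjusted p under 0.05 by limma. The median difference was -0.04, and it was 0.09 without GastP mouse 10 and -0.21 without GastP mouse 44. The 3 lowest p belonged to Ndufs4, an accessory subunit of complex I, and the assembly factors Ndufaf4 and Ndufaf7. Ndufs4 had 91.97, 101.4 and 132.4 CPM in the lowest, median and highest GastG mouse, against 101.95, 124.6 and 150.5 CPM in the 3 GastP mice, a difference of -0.25 ± 0.140 (adjusted p = 0.996, limma). Ndufaf4 differed by -0.29 ± 0.179 and Ndufaf7 by -0.21 ± 0.134, with the same adjusted p. Ndufaf7 had 63.5 CPM in the highest GastG mouse, against 64.3 CPM in the lowest GastP mouse, so its groups did not overlap. How many of all genes had groups without overlap was not counted. EdgeR and DESeq2 on summed reads called 0 members as well, beside 0% and 0.0473% of all genes.

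For IntL against the other Int codes 0 of 81 members passed, beside 3.05% of all genes higher and 2.49% lower, 5.54% in all, and 4 members had an unadjusted p under 0.05, beside 19.8% of all genes. Ndufv1, a core flavoprotein of complex I that binds NADH, had 379.5, 398.8 and 400.55 CPM in the 3 IntL mice, against 311.2, 329.9 and 357.9 CPM in the lowest, median and highest other Int mouse. Its groups did not overlap, and the difference was 0.23 ± 0.080 (adjusted p = 0.0848, limma). Ndufa7 had 117.8, 118.7 and 127.8 CPM in IntL mice, against 131.6, 152.2 and 202.3 CPM in the other Int mice, a difference of -0.32 ± 0.149 (adjusted p = 0.230, limma). Its groups did not overlap either, and genes without overlap were not counted over all genes. Ndufb6 differed by -0.25 ± 0.119 (adjusted p = 0.239, limma), with overlap. IntL mice carried more satellite glia transcripts, with sums of 1924 to 2872 CPM, than the other Int mice, whose codes reached 1236 CPM at most, and the part of these transcripts was not tested. Across the Int codes 0 members passed limma's F test, beside 9.87% of all genes. Ndufaf2 (adjusted p = 0.0815), Ndufv1 (adjusted p = 0.125) and Uqcrc1 (adjusted p = 0.191) had the 3 lowest p, and 2 members had an unadjusted p under 0.05, beside 26.5% of all genes. EdgeR called 1 member across the Int codes, beside 9.2% of all genes, and DESeq2 called 12, beside 22.2%.

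Nefh encodes the heavy neurofilament, which marks large myelinated sensory neurons. Within each of 24 mice the picked cells above the mouse's median Nefh level were set against the others, with the mouse as block. The split is relative to each mouse. Of all picked cells compared, 2 matched droplet neuron cluster 22 and 1 matched cluster 24, the clusters with the most Nefh. Nefh-high picked cells are therefore not a sample of large myelinated neurons. Nefh-high cells had lower levels of Uqcrh, the hinge subunit of complex III next to cytochrome c1, Ndufa1, a small membrane-arm subunit of complex I, and Cox7a2l. The last is known as a factor for supercomplexes of complexes III and IV, and whether it acts so in this strain was not tested. The members called lower are 3 of 81, beside 1.74% of all genes lower and 2.69% higher, 4.44% in all, and 0 members were higher.

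On the log2(CPM + 1) scale Uqcrh (chr4:116066965-116075071) had 6.42, 7.49 and 8.00 in the lowest, median and highest mouse for Nefh-high cells, against 6.76, 7.65 and 8.41 for Nefh-low cells. It was lower in Nefh-high cells of 19 of 24 mice, by -0.21 ± 0.054 (adjusted p = 0.0244, limma). Ndufa1 (chrX:37187588-37191163) had 6.20, 7.001 and 7.54 in Nefh-high cells, against 6.34, 7.25 and 7.72 in Nefh-low cells, and was lower in 20 of 24 mice by -0.19 ± 0.053 (adjusted p = 0.0381, limma). Cox7a2l (chr17:83501918-83517330) had 6.50, 7.27 and 7.80 in Nefh-high cells, against 7.14, 7.50 and 7.92 in Nefh-low cells, and was lower in 19 of 24 mice by -0.22 ± 0.063 (adjusted p = 0.0462, limma). The ranges over mice overlapped in each case.

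Of the 81 members 67 had a difference below 0, with a median of -0.04 beside 0.02 over all genes, and 18 had an unadjusted p under 0.05, beside 18.8% of all genes. Cytosolic ribosomal protein genes leaned the same way, with 71 of 79 below 0 and a median of -0.069, so the lean was not particular to the members. The members' share of reads was 1.97% in Nefh-high cells and 2.02% in Nefh-low cells, a difference of -0.04 ± 0.179 percentage points (SD, n = 24), with the lower value in Nefh-high cells of 15 mice. Median depth was close, at 1647186 reads in Nefh-high cells and 1563104 reads in Nefh-low cells. No gene passed a test of whether the Nefh difference depended on target family. With edgeR on summed reads, mouse as block, 0 members passed, beside 2.38% of all genes, and the adjusted p was 0.123 for Uqcrh, 0.105 for Ndufa1 and 0.0927 for Cox7a2l. With cells set against others of the same matched cluster 0 members passed, beside 0.134% of all genes.

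The droplet library shows how the members are shared out among the cell types of the ganglion. It is 1 library, so its values carry counting error only and no test of cell types was made. Clusters were named by markers, with the members left out of the clustering. Members took 4.80% of the UMIs of 1153 neurons, 3.33% of 472 satellite glia, 3.27% of myelinating Schwann cells (6.32% of the 2435 clustered barcodes), 2.58% of endothelial cells (5.13% of barcodes), 4.12% of 58 mural cells, 3.15% of 20 fibroblasts and 2.13% of 19 immune cells. Over single barcodes the median share was 3.75% in neurons, 3.28% in satellite glia, 3.88% in mural cells and 2.13% to 3.16% in the other classes. The median depth was 53803 UMIs in neurons, against 5340 in satellite glia, and the mitochondrially encoded subunits took 8.31% and 5.39% of UMIs in these 2 classes. In satellite glia the neuronal gene Prph stood at 165.1 CPM and in neurons at 2161 CPM. A free RNA share of 0.0784 in satellite glia was taken from Prph, Snap25 and Uchl1 together, relative to barcodes of 10 to 100 UMIs. With that share removed from satellite glia, 24 members reached a ratio of 2 in place of the 10 given next.

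Most members differed by less than 2-fold between neurons and satellite glia. A ratio of neurons to satellite glia of at least 2 was found for 10 of 83 members with enough UMIs, beside 33.6% of all genes, and a ratio of at most 0.5 for 2 members, beside 16.3%. The median log2 ratio was 0.40 for members and 0.35 for all genes. With each barcode thinned to 1000 UMIs, 2 of 67 members reached a ratio of 2 and the median was 0.28, beside 0.56 for all genes.

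Roles differed in this ratio. Atp5s, a factor related to ATP synthase and to assembly of the complex I membrane arm, had 17.9 CPM in neurons and 4.15 CPM in satellite glia, a ratio of 4.30 (95% interval 2.45 to 8.34, from 1207 and 12 UMIs). The assembly factors Ndufaf6 and Ndufaf5 had ratios of 4.03 and 2.48, and Atp5sl, an assembly protein of the same arm, had 2.42. Cox7a1 had 75.2 CPM in neurons and 30.8 CPM in satellite glia, a ratio of 2.44 (1.98 to 3.05). Atp5g3, a gene for the c ring of ATP synthase, had 685 CPM in neurons and 299.1 CPM in satellite glia, a ratio of 2.29 (2.14 to 2.45). The median ratio was 1.67 in complex IV, 1.33 in the accessory and 0.956 in the core subunits of complex I, and 1.24 in its assembly factors.

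Members at the other end were higher in satellite glia. Cox6b2, which in mammals is known as the testis isoform of complex IV subunit 6b, had 3.51 CPM in neurons and 49.8 CPM in satellite glia, a ratio of 0.0703 (0.0569 to 0.0871). Cox4i2, an isoform of subunit 4 known from lung and low oxygen, had a ratio of 0.496 (0.329 to 0.779). Ndufs8, a core iron-sulfur subunit of complex I, had 131.8 CPM in neurons and 218.8 CPM in satellite glia, a ratio of 0.603. Uqcrc2, a core protein of complex III, had 0.651, Ndufa9 had 0.654 and Ndufb11 had 0.790, the last 2 being accessory subunits of complex I. Of the 7 core subunits of complex I, 2 had a ratio above 1, Ndufs7 at 1.002 and Ndufs3 at 1.01.

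**Figure D3:**
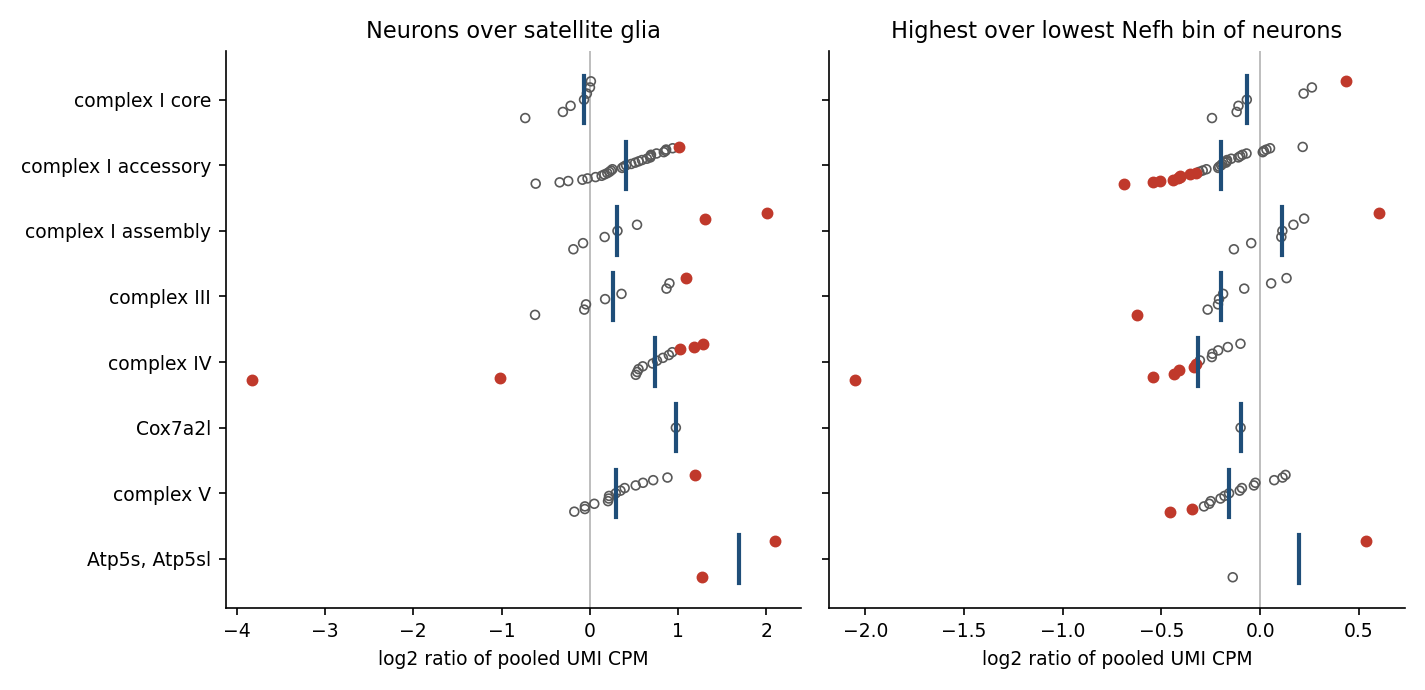
Log2 ratios of pooled UMI CPM for each member with enough UMIs, grouped by role, for neurons over satellite glia (left) and the highest over the lowest bin of neurons by Nefh (right). Filled red points are past a ratio of 2 or 0.5 on the left and of 0.8 or its inverse on the right, open points are not, and blue bars are medians of each role. The lowest point is Cox6b2 on the left and Cox7a1 on the right.

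Isoforms of the same subunit were divided differently among the cell types. UMIs count molecules, so isoforms are compared as shares of the UMIs of their family, with exact 95% intervals. Ndufa4l2, a paralog of the complex IV subunit Ndufa4 known to rise in low oxygen, made up 73.7% (68.7% to 78.3%) of the pair in mural cells, 8.14% in endothelial cells and 0.0217% in neurons. Its level was 1408 CPM in mural cells and 0.325 CPM in neurons. Cox4i2 made up 40.7% (36.3% to 45.3%) of the Cox4i1 and Cox4i2 pair in mural cells, 5.32% in endothelial cells, 0.197% in neurons and 0.568% in satellite glia. Members with few UMIs in neurons were left out of the next count, among them Ndufa4l2 with 22. Among the 83 members kept, 46 had their highest level in neurons, 19 in mural cells and 1 in satellite glia. The choice of members thus rests on neurons, and the same count over all genes was not made. These numbers do not set the members apart from other genes.

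Other families shifted less. Cox6b2 made up 0.245% of its pair in neurons, 4.87% (4.13% to 5.71%) in satellite glia and 6.13% in mural cells. Cox7a2l made up 30.7% of the Cox7a1, Cox7a2 and Cox7a2l UMIs in neurons, 30.4% in satellite glia and 51.99% (49.03% to 54.9%) in endothelial cells, while Cox7a1 made up 3.70% in neurons and 2.95% in satellite glia. The 3 genes Atp5g1, Atp5g2 and Atp5g3, which encode the same c subunit, took 48.3%, 17.9% and 33.9% of their UMIs in neurons, 44.03%, 31.2% and 24.8% in satellite glia, and 30.3%, 46.7% and 23.01% in endothelial cells. Cox6a2, the muscle isoform of subunit 6a, had 0 UMIs in neurons beside 78603 of Cox6a1, which allows a share of up to 0.00469%. Cox7b2, Cox8b and Cox8c, known from other tissues, had 0.429, 0.0296 and 0.0444 CPM in neurons, beside 746 CPM of Cox7b and 2281 CPM of Cox8a.

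The 1057 neurons of the filtered library were then ordered by Nefh and cut into 4 bins of near-equal size, with pooled Nefh levels of 91.3, 162.4, 247.2 and 996 CPM. The members' share of UMIs was 4.72%, 5.11%, 5.20% and 4.04% from the lowest to the highest bin. The median over single neurons was 3.56%, 3.92%, 4.14% and 3.70%, so that by neuron the highest bin lay above the lowest, and in pooled UMIs below it. Median depth was 51476, 61714, 66684 and 49375 UMIs in the same order, and the mitochondrially encoded subunits took 8.82%, 8.83%, 8.37% and 6.72%. Cytosolic ribosomal proteins took 8.55%, 8.23%, 8.03% and 8.27%. Over single neurons the share had a Spearman correlation of -0.01 with Nefh and 0.50 with the UMI total (n = 1057, 1 library).

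In the highest bin 18 of 81 members were at or below 0.8 of the lowest bin, beside 12.7% of all genes, and 3 were at or above the inverse of 0.8, beside 31.5%. The median log2 ratio was -0.17 for members and 0.15 for all genes. The 18 were 9 accessory subunits of complex I, 6 genes of complex IV, 2 of complex V and 1 of complex III, and the 3 were a core subunit, an assembly factor of complex I and Atp5sl. Thinned to 13000 UMIs each, neurons gave 10 members at or below 0.8 and 5 at or above its inverse, with a median of -0.09 beside 0.09 for all genes.

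Cox7a1 stood apart from the rest, with 86.6, 94, 90.95 and 20.9 CPM over the bins and a ratio of 0.241 (95% interval 0.212 to 0.273). Ndufb6 had 431.1, 496.5, 505 and 267.3 CPM, a ratio of 0.620. Uqcrb, a subunit of complex III that binds ubiquinone, had 387.6, 455.7, 444.2 and 251.8 CPM, a ratio of 0.650. Cox6b1 of complex IV and Ndufs4 of complex I each had a ratio of 0.687, and Ndufa11 had 0.705. All 6 were higher in both middle bins than in the lowest bin.

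A few members were higher in the highest bin. Ndufaf5, an assembly factor that modifies a core subunit of complex I, had 25.5, 26.02, 28.03 and 38.7 CPM, a ratio of 1.52 (1.33 to 1.73). Atp5sl had 1.45, and Ndufs1, the largest core subunit of complex I, had 44.8, 44.8, 48.6 and 60.5 CPM, a ratio of 1.35. Ndufaf2 and Ndufv1, the flavoprotein core subunit, each had 1.17. The core subunits had a median ratio of 0.954 and were not uniform, since Ndufs7 had 0.844, Ndufs8 0.921, Ndufs3 0.927 and Ndufv2 0.954. Among the regulators of mitochondrial biogenesis Ppargc1a had 33.1 CPM in the highest bin and 3.93 CPM in the lowest, a ratio of 8.42, Esrra had 2.29, Gabpa 0.95 and Nrf1 0.817. In picked cells the Ppargc1a difference between Nefh-high and Nefh-low cells was -0.09 (adjusted p = 0.855, limma). Few picked cells matched the Nefh-rich neuron clusters, so the picked and droplet comparisons did not contrast the same kinds of cells. Of the 13 mitochondrially encoded subunits 9 were at or below 0.8.

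The highest bin also held more satellite glia and Schwann transcripts, with 1628 and 374.3 CPM, than the third, with 1201 and 323.6 CPM, and close to the lowest, with 1572 and 320.4 CPM. With the 2 neuron clusters led by satellite glia genes left out, 32 members were at or below 0.8 and 3 at or above its inverse, with a median of -0.27 beside 0.19 for all genes. In the picked cells, with few of the Nefh-rich kinds, the Cox7a1 difference between Nefh-high and Nefh-low cells was -0.28 (adjusted p = 0.323, limma). That of Ndufb6 was -0.04 (adjusted p = 0.690, limma).

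**Figure D4:**
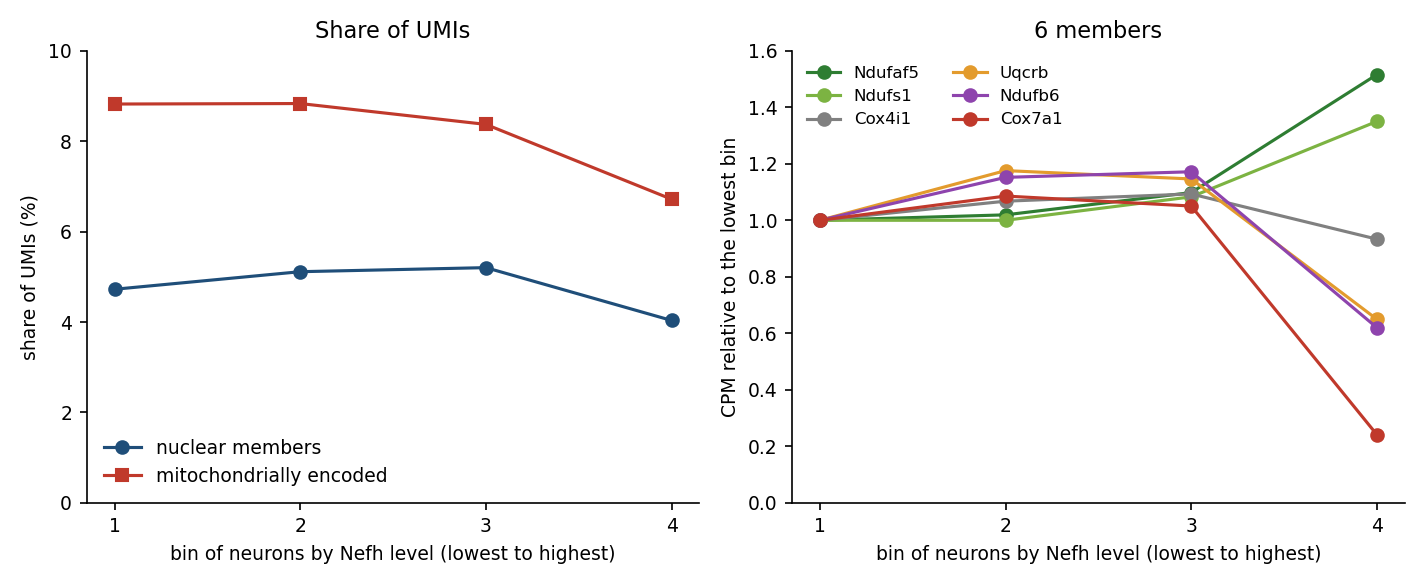
Left, share of UMIs (%) taken by the nuclear members and by the mitochondrially encoded subunits in 4 bins of 1057 droplet neurons ordered by Nefh. Right, pooled CPM of 6 members relative to the lowest bin. Both pooled shares are lowest in the highest bin, where Cox7a1 stands at 0.241 and Ndufaf5 at 1.52 of the lowest bin.

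Neuron subtypes differed in the members as a group. Over 28 neuron clusters the members' share of UMIs ran from 2.88% in cluster 0, led by Uts2b and Cckar, to 8.63% in cluster 13, led by Efcab6, Bub3 and Trpa1. Cluster 7, led by Dcdc2a, Mgll and Dbh, came next with 6.65%. Of 75 members with at least 2000 UMIs in neurons, 66 had their highest level in cluster 13, beside 9.09% of 5003 genes, and 39 had their lowest in cluster 0, beside 6.74%. The ratio of the highest to the lowest cluster had a median of 3.46 over members and 2.66 over all these genes.

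Cluster 13 was deep, with a median of 97361 UMIs. The next highest shares, 6.65% and 5.85%, were in clusters 7 and 12, which were also deep, with 101756 and 113219 UMIs. The satellite glia transcripts of cluster 13 summed to 520 CPM, against 1683 CPM in cluster 0. The part of depth in the order of clusters was not tested. Members with their highest level elsewhere included Atp5a1, Atp5e, Atp5g2, Cox7a2l, Ndufa10, Ndufaf2, Ndufaf3 and Ndufs1. Of these, Atp5a1 and Ndufs1 were highest in cluster 22 and Ndufaf2 and Ndufa10 in cluster 24, the 2 clusters with the most Nefh (1739 and 2708 CPM). In all, cluster 22 held the highest level of 2 of 75 members, beside 5.28% of the 5003 genes. Cluster 24 held that of 3 of 75, beside 15.7%, so members were not favoured in either. Atp5g2 was the most even of the 75, with 420.4 CPM in its highest cluster and a median of 355.4 CPM.

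Cox7a1 (chr7:30184144-30186078) varied most of the 75. It had 242.6 CPM in cluster 13, 183.3 CPM in cluster 6 (Pkib and Vip) and 158.8 CPM in cluster 2 (Trpa1 and Mctp1), with a median of 29.2 CPM over clusters and 5.83 CPM in cluster 23. Ndufb6 had 1184 CPM in cluster 13 and a median of 243.5 CPM, and Uqcrb had 988 CPM and a median of 269.03 CPM. Cox4i2 was low in neurons but uneven, with 43.1 CPM in cluster 27, 21.2 CPM in cluster 0 and 19.97 CPM in cluster 11, and a median of 1.63 CPM.

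The Cox7a1 pattern was then looked at in the picked cells, a comparison chosen after droplet values were seen. Cells were matched on genes that include no member. In 19 mice with at least 2 such cells, 61 cells matched to clusters 13, 6 or 2 were set against the other cells of the same mouse. The matched cells had 0.43, 3.94 and 5.06 in the lowest, median and highest mouse on the log2(CPM + 1) scale, against 0.84, 2.60 and 3.85 in other cells. Cox7a1 was higher in matched cells of 17 of 19 mice, by 1.20 ± 1.05 (SD, n = 19), with p = 9e-05 in a two-sided sign-flip permutation test with 100000 resamples. With each gene centred within its protocol before matching, 68% of cells kept their cluster, and the difference was 1.49 ± 1.05 in 14 mice (SD), higher in 13. Port mice 22 and 27, with the most injury transcripts, were the 2 exceptions, at 0.43 and 1.37 in matched cells and 0.84 and 1.64 in others. The level was not particular to these clusters. Averaged over cells, Cox7a1 had 15.9, 26.2 and 14.6 CPM in cells matched to clusters 13, 6 and 2. It had 14.2 and 14.4 CPM in cells matched to clusters 0 and 11, and less in those matched to any other cluster. Other members were less clear: in 10 mice the members' share of reads was 2.15% in cells matched to cluster 13 and 1.97% in other cells, a difference of 0.18 ± 0.208 percentage points (SD, n = 10), higher in 7 mice. Over all picked cells the droplet order of clusters was not seen: the mean share was 2.12% in cells matched to cluster 0, 2.07% in cluster 13 and 2.03% in cluster 7.

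Cox4i2 was also uneven in picked cells, in part over other clusters. The 13 cells matched to cluster 0 had a mean of 5.38 CPM, against 0 CPM in the 37 cells matched to cluster 13, and 84.6% of them had a read. Cells matched to clusters 11 and 27 had 2.64 and 2.68 CPM (26 and 6 cells), with a read in 53.8% and 33.3% of them. The 9 cells matched to cluster 4 had 3.97 CPM and the 11 matched to cluster 3 had 1.82 CPM, where the droplet levels were 1.45 and 1.83 CPM. Only 11.1% and 27.3% of these cells had a read, so both means rest on very few cells. All these Cox4i2 values are means over cells of several mice and were not tested.

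**Figure D5:**
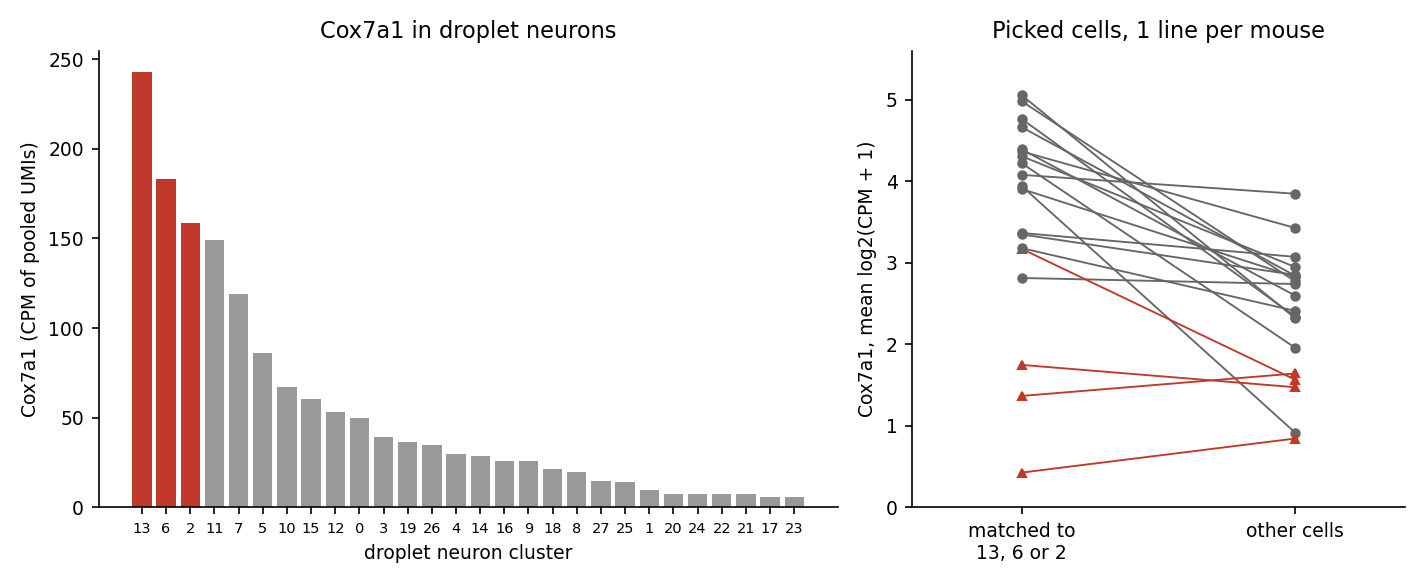
Left, Cox7a1 (CPM of pooled UMIs) in 28 droplet neuron clusters, ordered by level, with the 3 highest in red. Right, mean log2(CPM + 1) of Cox7a1 in picked cells matched to those 3 clusters and in other cells, 1 line per mouse, with red triangles for the mice of most injury transcripts. The line slopes down in 17 of 19 mice.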

How the data were processed

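The picked cells' table holds log2 values of reads, as the authors deposited it, and the droplet matrices hold counts of UMIs per gene and barcode; the gene table holds names only, an other unit per the file headers. Cell Ranger 2.0.1 and mm10 are named in the submitters' processing notes, and the aligner and counter of the picked cells are not given in the sources used here. Values were taken back to reads, and 94.1% came out whole within 0.001 of their size (Ndufb4: 19.0%, so its reads are in part shared or divided). Reads were not counted by strand as far as the sources say. In the read table, 1 column matches no sample title and was left unused.

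Picked cells passed at 2000 genes (449 of 452), and 394 cells of 29 mice with at least 4 coded cells were averaged per mouse as log2(CPM + 1); 53 cells coded na were not compared. Genes needed 10 reads in 5% of cells, which left 12693 genes and 81 of 89 members (not Atp5c1-ps, Cox4i2, Cox6a2, Cox6b2, Cox7b2, Cox8b, Cox8c and Ndufa4l2). All codes entered 1 limma 3.58.1 fit (R 4.3.3) with an intensity trend, adjusted by Benjamini-Hochberg over all genes. EdgeR 4.0.16 and DESeq2 1.42.0 ran as alternatives on sums of rounded reads per mouse.

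Droplet barcodes passed at 1000 UMIs and 500 genes (2435 clustered) and were clustered with scanpy 1.11.5 and leidenalg 0.10.2 at resolution 1, neurons again at 1.5, with 2000 variable genes, none of them members. No doublet caller was run, and 434 barcodes stayed unnamed. Ratios needed 200 UMIs over both groups, and a ratio of at least 2 or at most 0.5 (for Nefh, 1.25 or 0.8) was counted. Picked cells were matched to droplet clusters by rank correlation over 543 leading genes. Intervals are exact at 95% and cover counting error only.

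Named genes are all members past the threshold (the 3 lowest p where none passed), the 6 highest and 6 lowest droplet ratios, and the isoform families; Cox7a1 among picked cells, Prph and the cluster-wise extremes were added after their values were seen. The members and lists were chosen with earlier results of these data known. The scripts were tested on simulated data. A few items are not reported here.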

Additional observations from a re-analysis of the deposited data

Results flagged for a closer look

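In groups of 4 to 10 mice, 44 sets of values were searched for a lowest or highest mouse far from its nearest neighbour, and 6 were found; chance alone gives about 1 in 20. GastG mouse 8 had a members' share of 2.235% of reads, against 1.859% in the nearest of 5 mice. In the same mouse Ndufb5 was at 121.2 CPM, with the nearest at 78.04 CPM, Ndufb9 at 254.96 CPM, with the nearest at 198.8 CPM, and Ndufv2 at 355.5 CPM, with the nearest at 302.2 CPM. IntP mouse 12 had 149.6 CPM of Cox7a2l, with the nearest of 4 mice at 179.4 CPM, and 99.49 CPM of Ndufb5, with the nearest at 121.2 CPM. These values share a mouse and are not independent of each other. GastG mouse 8 gave 8 cells and had 184.4 CPM of injury transcripts, within the range of the other GastG mice.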

How the results depend on the processing

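No result past its test turned its direction in the settings tried. Medians over all members, which were not tested, did: for Gast against Int -0.16 became 0.01 in mice numbered up to 39, for GastG against GastP -0.04 became 0.09 without GastP mouse 10 and 0.01 with covariates, and for IntL -0.03 became 0.01 with covariates. Of the other settings, the mice numbered up to 39, the cells under 100000 reads, the glia-led clusters and those on Cox7a1 were chosen after seeing the data. The counts that follow stand without the share of all genes called in the same setting, except where the Results give it. They do not by themselves set the members apart from other genes.

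The count of members called for Gast against Int, 5 as reported, was 3 with a pseudocount of 0.1, 8 with 10, 16 with TMM factors, 3 with no filter on low genes, 31 by edgeR, 36 by DESeq2, 12 with reads and genes per cell as covariates, 0 adjusted for matched cluster, 1 in mice numbered up to 39 and 8 without cells under 100000 reads. Leaving out 1 mouse gave 2 to 22: 22 without GastP mouse 10, 12 without GastG mouse 8, 2 without GastP mouse 44, and 3 without any of GastG mice 42 and 43, GastP mouse 9, IntP mice 11 and 17, IntM mice 15 and 20, IntD mouse 14, and IntL mice 34 and 39. Of 32 settings, Ndufb6 passed in 31, Ndufb5 in 30, Atp5o in 29, Ndufv2 in 14 and Ndufb9 in 10. In the Port comparison Ndufa11 passed in 19 of 40 settings and Ndufb5 in 18.

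For Port, 2 as reported, the count was 1 and 4 with the pseudocounts 0.1 and 10, 0 with TMM factors, 0 with no filter, 5 by edgeR, 14 by DESeq2, 0 without the 4 mice of most injury transcripts, 0 with covariates, 0 adjusted for cluster, 63 in mice numbered up to 39 and 6 without cells under 100000 reads. Leaving out 1 mouse gave 0 to 31: 31 without GastP mouse 44, 13, 12 and 9 without Port mice 47, 52 and 51, 5 or 6 without GastG mouse 41, IntM mouse 26 or IntP mouse 12, 1 without GastG mouse 8, IntD mice 14 or 19 or IntL mouse 33, and 0 without GastG mouse 7, GastP mice 9 or 10, IntP mice 11, 16 or 17, IntM mice 15 or 20, IntL mice 34 or 39, or Port mice 21, 22, 27 or 53.

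GastG against GastP stayed at 0 throughout (0 to 0 leaving out 1 mouse). IntL against other Int, 0 as reported, was 1 by DESeq2 and 1 without the 4 mice (0 to 0 leaving out 1 mouse). Across the Int codes, 0 as reported, it was 1 by edgeR, 12 by DESeq2 and 1 without the 4 mice (0 to 1 leaving out 1 mouse). For Nefh in picked cells, 3 as reported, it was 1 with a pseudocount of 0.1, 5 with TMM factors, 1 with no filter, 6 split on the Nefh residual, 0 with no replicate block, 0 by edgeR with replicate block and 0 adjusted for cluster, and 1 to 5 leaving out 1 mouse (5 without IntL mouse 33, 1 without any of GastG mouse 43, GastP mice 9 and 44, IntP mice 11 and 12, IntM mouse 15, IntD mouse 18, IntL mice 34 and 39, and Port mice 46, 51, 52 and 53). The pairing there is by mouse. Of 34 settings, Uqcrh passed in 31, Ndufa1 in 16 and Cox7a2l in 10.

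In the droplet library, the 12 members past 2 or 0.5 for neurons against satellite glia became 2 thinned, 7 as a mean over barcodes and 26 with free RNA removed, and the 21 for Nefh became 9 with 3 bins in place of 4 and 35 without glia-led clusters. The Cox7a1 difference in matched cells stayed between 1.09 and 1.29 leaving out 1 mouse. The causes of these changes were not tested.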
